A study of Mus musculus with 8 samples.

Results

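The mitochondrial ribosomal proteins examined here were the genes whose symbol begins with Mrpl or Mrps followed by a digit and that had a value in every library of the bulk RNA-seq matrix of splenic B cells. The rule found 77 genes among 14072 symbols with a value in all 8 libraries, of 24902 symbols in all. By symbol, 48 belong to the large subunit (Mrpl) and 29 to the small subunit (Mrps). Of the 77, 76 passed the filter on low counts and entered the test beside 13173 tested genes in all, and the remaining member, Mrpl53, had 0 counts in every library.

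The libraries came from mice taken at early removal criteria (ERC), with 4 of the genotype Eµ-PRMT5, 3 double transgenic (Eµ-PRMT5/TCL1) and a single Eµ-TCL1 mouse. All are labelled strain C57BL/6N, tissue spleen, and the transgenes are given as Eµ-hPRMT5, Eµ-hPRMT5/hTCL1 and Eµ-hTCL1. No group without a transgene was part of this matrix. In Eµ-PRMT5 mice a VH promoter and IgH-Eµ enhancer drive human PRMT5, an arginine methyltransferase, in immature and mature B cells, and by the methods the double transgenic mice come from crossing these with homozygous Eµ-TCL1 mice, which carry the human TCL1 oncogene. Age is not given in the labels, and males and females were mixed by the methods. Median survival in the paper was longer for Eµ-PRMT5 mice than for the other genotypes. Age at ERC may thus differ with genotype, and age and genotype cannot be told apart here. B cells were taken with a pan-B isolation kit, and since this is bulk RNA, fewer cells of a type and less RNA per cell cannot be told apart. The 1 Eµ-TCL1 mouse has no replicate, so a comparison with it asks only whether that library lay outside the spread of the other groups.

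The mitoribosome translates the handful of messenger RNAs encoded by mitochondrial DNA, all of them for subunits of the oxidative phosphorylation complexes. Its proteins are encoded in the nucleus, made in the cytosol and imported, and they assemble on mitochondrial ribosomal RNA into a small subunit, which decodes the message, and a large subunit, which holds the peptidyl transferase center. Many members descend from bacterial ribosomal proteins and others were gained in the mitochondrial lineage. B cells that are activated or proliferating are known to expand their mitochondria and mitochondrial translation.

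Totals ran from 3356297 counts (Eµ-TCL1) to 10252426 (Eµ-PRMT5 mouse 4). Every defining B-cell marker on a list of 9 was counted, with a summed level of 2091 to 7334 CPM (counts scaled to a common library total) in Eµ-PRMT5 mice, 3874 to 9225 in Eµ-PRMT5/TCL1 mice and 5415 in the Eµ-TCL1 mouse, and Eµ-PRMT5 mouse 4 was the lowest. Markers of other cells were also present. The 12 neutrophil markers, all counted, summed to 431 to 5436 CPM in Eµ-PRMT5, 663 to 9216 in Eµ-PRMT5/TCL1 and 621 in Eµ-TCL1. Mpo and Ngp made 3498 and 2316 of the 9216 CPM in Eµ-PRMT5/TCL1 mouse 1. Between Eµ-PRMT5/TCL1 and Eµ-PRMT5, 8 of the 12 were higher in Eµ-PRMT5/TCL1 and 4 lower by log2 fold change. The mouse Prmt5 gene stood at 128, 171, 62.7 and 235 CPM in Eµ-PRMT5 mice, 110.5, 115 and 126 in Eµ-PRMT5/TCL1 mice and 79.5 in the Eµ-TCL1 mouse. It does not check the labels, since the transgene is human and it is not known whether its reads were counted there.

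Promoter windows from RefSeq (GRCm38.p6), 250 bases before to 50 after the listed start, were at hand for 67 of the 76 tested members. They are shown first because the members share letters in them that the choice of genes did not use. The letters CCGGAAG, the core bound by ETS factors, stood on either strand in 23 of 67 windows (34.3%), against 17.7% of the windows of 10156 tested genes. AAGATGGC, the core of the YY1 motif, was in 12 (17.9%, against 4.58%), and GCATGCGC, the core of nuclear respiratory factor 1 (NRF1), in 8 (11.9%, against 5.31%). At least 1 of these was in 35 windows (52.2%, against 25.2%). The E-box CACGTG, which MYC and other factors bind, was in 5 (7.46%, against 9.87%), and TATAAA in 4 (5.97%, against 7.61%). No match of one motif overlapped a match of another. Of the 12 windows with the YY1 letters, 8 carried them on the sense strand 11 to 36 bases after the start. These letters hold an ATG, and whether any such match is the start codon of the protein was not checked. The windows had a median GC content of 58.0%, against 59.7% for all tested genes. A match is a run of letters and not a measured binding site.

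6 windows follow, 5′ to 3′ on the gene's own strand, in lower case with matches in capitals. Mrpl17, Mrps22 and Mrpl3 are members that stood out in a comparison below, Mrpl32 held the most NRF1 matches and varied little between mice, and Mrps11 and Mrpl46 are a small and a large subunit gene that start back to back. Mrpl17 (chr7:105811038-105811337, minus strand) has ETS letters 237 bases and NRF1 letters, on the antisense strand, 11 bases before the start. The ETS letters stand 11 bases before the start in Mrps22 (chr9:98601630-98601929, minus strand) and 19 before it in Mrpl3 (chr9:105053018-105053317, plus strand). Mrpl32 (chr13:14612988-14613287, minus strand) has NRF1 letters 87 and 85 bases before the start, which overlap on opposite strands, and again 66 and 22 bases before it, besides antisense YY1 letters 242 bases before it. The windows of Mrps11 (chr7:78782881-78783180, plus strand; YY1 letters) and Mrpl46 (chr7:78783040-78783339, minus strand; TATAAA) share 141 bases.
Mrpl17: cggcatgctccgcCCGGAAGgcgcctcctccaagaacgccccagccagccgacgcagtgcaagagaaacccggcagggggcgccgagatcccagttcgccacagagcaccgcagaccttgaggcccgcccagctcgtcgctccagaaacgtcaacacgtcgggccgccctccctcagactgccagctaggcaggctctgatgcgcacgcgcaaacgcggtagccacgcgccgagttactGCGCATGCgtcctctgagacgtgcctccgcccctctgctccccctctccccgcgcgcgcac
Mrps22: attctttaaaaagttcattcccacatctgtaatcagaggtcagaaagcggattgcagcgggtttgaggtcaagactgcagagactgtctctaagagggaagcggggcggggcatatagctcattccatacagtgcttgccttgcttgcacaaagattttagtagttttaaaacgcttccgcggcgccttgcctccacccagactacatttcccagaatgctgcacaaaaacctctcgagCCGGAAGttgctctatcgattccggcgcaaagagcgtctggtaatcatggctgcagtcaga
Mrpl3: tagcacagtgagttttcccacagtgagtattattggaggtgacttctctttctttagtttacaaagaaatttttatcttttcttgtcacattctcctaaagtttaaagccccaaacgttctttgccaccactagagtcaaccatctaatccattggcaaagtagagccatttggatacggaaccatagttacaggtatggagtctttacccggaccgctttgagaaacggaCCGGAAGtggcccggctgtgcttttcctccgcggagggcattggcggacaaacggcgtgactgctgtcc
Mrpl32: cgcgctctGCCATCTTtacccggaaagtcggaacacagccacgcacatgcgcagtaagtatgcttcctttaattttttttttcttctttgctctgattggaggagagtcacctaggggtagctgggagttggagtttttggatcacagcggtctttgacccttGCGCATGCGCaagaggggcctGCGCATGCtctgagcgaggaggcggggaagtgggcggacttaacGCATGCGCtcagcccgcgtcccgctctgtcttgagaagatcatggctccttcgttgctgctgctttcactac
Mrps11: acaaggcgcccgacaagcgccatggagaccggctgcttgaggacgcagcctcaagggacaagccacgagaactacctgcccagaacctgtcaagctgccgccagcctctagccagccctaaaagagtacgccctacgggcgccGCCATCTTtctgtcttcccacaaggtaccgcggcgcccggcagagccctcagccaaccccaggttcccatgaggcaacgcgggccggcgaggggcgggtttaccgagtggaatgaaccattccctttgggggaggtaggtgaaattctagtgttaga
Mrpl46: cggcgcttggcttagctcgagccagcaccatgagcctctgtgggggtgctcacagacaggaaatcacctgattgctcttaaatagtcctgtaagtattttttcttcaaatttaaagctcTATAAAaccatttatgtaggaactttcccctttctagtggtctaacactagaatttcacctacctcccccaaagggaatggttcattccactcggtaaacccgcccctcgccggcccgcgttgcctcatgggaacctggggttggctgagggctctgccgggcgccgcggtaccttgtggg

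In every library the large subunit members stood above the small subunit members on the log2 CPM scale, with counts scaled by the trimmed mean of M values (TMM). The set mean over 76 members was 5.84, 5.85, 5.52 and 6.52 in Eµ-PRMT5 mice 1 to 4. In Eµ-PRMT5/TCL1 it was 5.84, 5.75 and 5.89, and the Eµ-TCL1 mouse had 5.32. Eµ-PRMT5 mouse 4 was thus the highest of the 8 and the Eµ-TCL1 mouse the lowest, while the Eµ-PRMT5/TCL1 mice lay close together inside the range of the Eµ-PRMT5 mice. As groups the means were 5.93 ± 0.42 (SD, n = 4) and 5.83 ± 0.07 (SD, n = 3), and without mouse 4 the Eµ-PRMT5 mean was 5.74 ± 0.19 (SD, n = 3). Of the counts on symbols with a value in all 8 libraries, the members took 0.476%, 0.488%, 0.459% and 0.699% in Eµ-PRMT5. They took 0.489%, 0.446% and 0.508% in Eµ-PRMT5/TCL1 and 0.403% in Eµ-TCL1.

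The balance of the 2 subunits moved little beside these differences. The large minus small subunit difference in mean log2 CPM was 0.50, 0.33, 0.35 and 0.40 in Eµ-PRMT5 mice, 0.39, 0.36 and 0.37 in Eµ-PRMT5/TCL1 mice and 0.30 in the Eµ-TCL1 mouse. The group means were 0.40 ± 0.08 (SD, n = 4) and 0.37 ± 0.01 (SD, n = 3), so the groups overlapped, and the spread came mostly from Eµ-PRMT5 mouse 1. A few symbols go against their names in structures of the mammalian mitoribosome. Mrps18a and Mrps30 proteins sit in the large subunit, and Mrps36 belongs to the 2-oxoglutarate dehydrogenase complex. With these moved or left out, the difference ran from 0.25 (Eµ-PRMT5 mouse 3) to 0.59 (Eµ-PRMT5 mouse 1), with 0.40, 0.38 and 0.36 in Eµ-PRMT5/TCL1 and 0.38 in Eµ-TCL1.

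**Figure D1:**
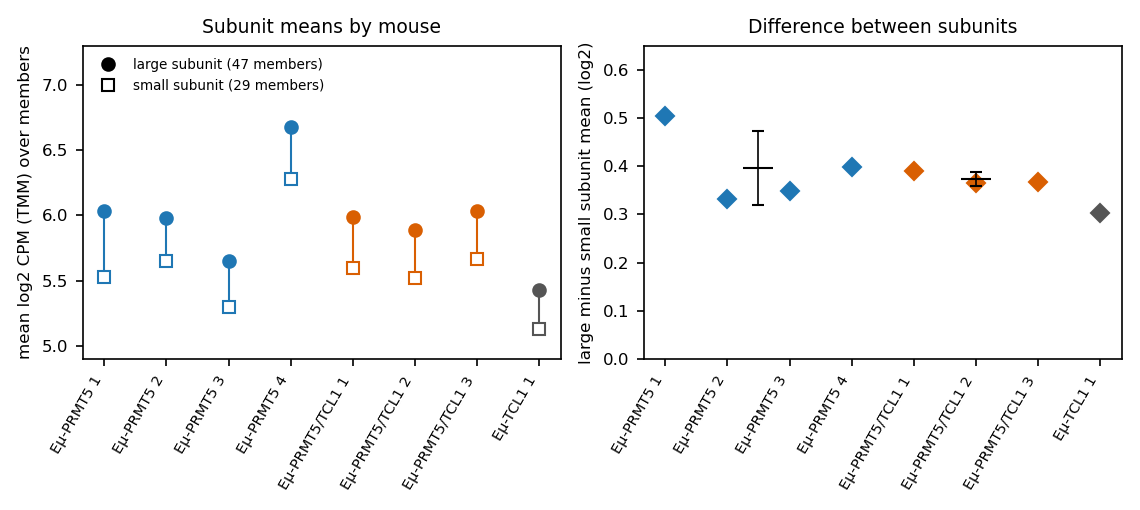
Left, mean log2 CPM (TMM) of the large subunit (filled circles, 47 members) and small subunit (open squares, 29 members) in each mouse; right, their difference, with the mean and SD of each replicated group in black. Both subunits are highest in Eµ-PRMT5 mouse 4 and lowest in the Eµ-TCL1 mouse, and the difference stays between 0.30 and 0.50.

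The single members followed the set mean to differing degrees. Eµ-PRMT5 mouse 4 held the highest level of the 8 mice for 60 of 76 members (36 of 47 large, 24 of 29 small), where it did so for 20.1% of all tested genes. The Eµ-TCL1 mouse held the lowest level for 37 members (25 large, 12 small), against 14.2% of all tested genes. Eµ-PRMT5 mouse 3, the second shallowest library, was lowest for 16. The median SD of a member's log2 CPM over the 8 mice was 0.47, against 0.62 for all tested genes, and 66 members lay under the latter. Within groups the median SD was 0.52 in Eµ-PRMT5 (0.66 over all tested genes), 0.37 there without mouse 4 (0.58) and 0.22 in Eµ-PRMT5/TCL1 (0.36). The median correlation of 2 members over the 8 mice was 0.58, as a description over 2850 pairs that share libraries. It was 0.34 without Eµ-PRMT5 mouse 4 and 0.17 over the 6 mice left when the Eµ-TCL1 mouse was dropped as well. These 2 libraries held the highest and the lowest set mean, so leaving them out lowers the correlation by construction. The same median over pairs of all tested genes was not taken, so these values are not shown to be particular to the members.

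Other measures of the same 2 libraries are given here beside the members. Eµ-PRMT5 mouse 4 was the deepest library and had the smallest TMM factor (0.859), and the Eµ-TCL1 mouse was the shallowest with the largest (1.16). The 10 proliferation genes on a list (Mki67, Mcm2 and others, all counted) summed to 677, 607, 1070 and 5414 CPM in Eµ-PRMT5, 2156, 1264 and 2808 in Eµ-PRMT5/TCL1 and 812 in Eµ-TCL1. Members are short, with a median transcript of 1302 bases against 2867 for tested genes with a length, and 48 of 76 were at most 1616 bases, the upper bound of the shortest quintile of these. Relative to each gene's mean over the mice, the median gene of that quintile was at 0.21 in Eµ-PRMT5 mouse 4 and -0.15 in the Eµ-TCL1 mouse on the log2 scale, and the median of the longest quintile at -0.24 and 0.24. When each member was instead centered on tested genes of like length and expression, a choice made after seeing the data, the set stood at 0.39 in mouse 4, -0.27 in the Eµ-TCL1 mouse and -0.14 in Eµ-PRMT5 mouse 3, where the uncentered deviations were 0.71, -0.50 and -0.30. With every library thinned to the depth of the shallowest, also chosen after seeing the data, the members' median log2 fold change was 0.63 in Eµ-PRMT5 and 0.46 in Eµ-PRMT5/TCL1 against Eµ-TCL1, beside 0.65 and 0.47 at full depth. Of the Eµ-PRMT5 mice, mouse 4 also had the highest sums of neutrophil (5436 CPM), macrophage (3293, of which 2865 from Lyz2) and erythroid (348) markers. The titles of Eµ-PRMT5 mice 3 and 4 carry mouse numbers that the paper's histology also uses. Under the number of mouse 3 it describes anaplastic large lymphocytes with histiocytes, and under that of mouse 4 sheets of small lymphocytes. The part of proliferation, the other cell types and the histology in these differences was not tested.

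**Figure D2:**
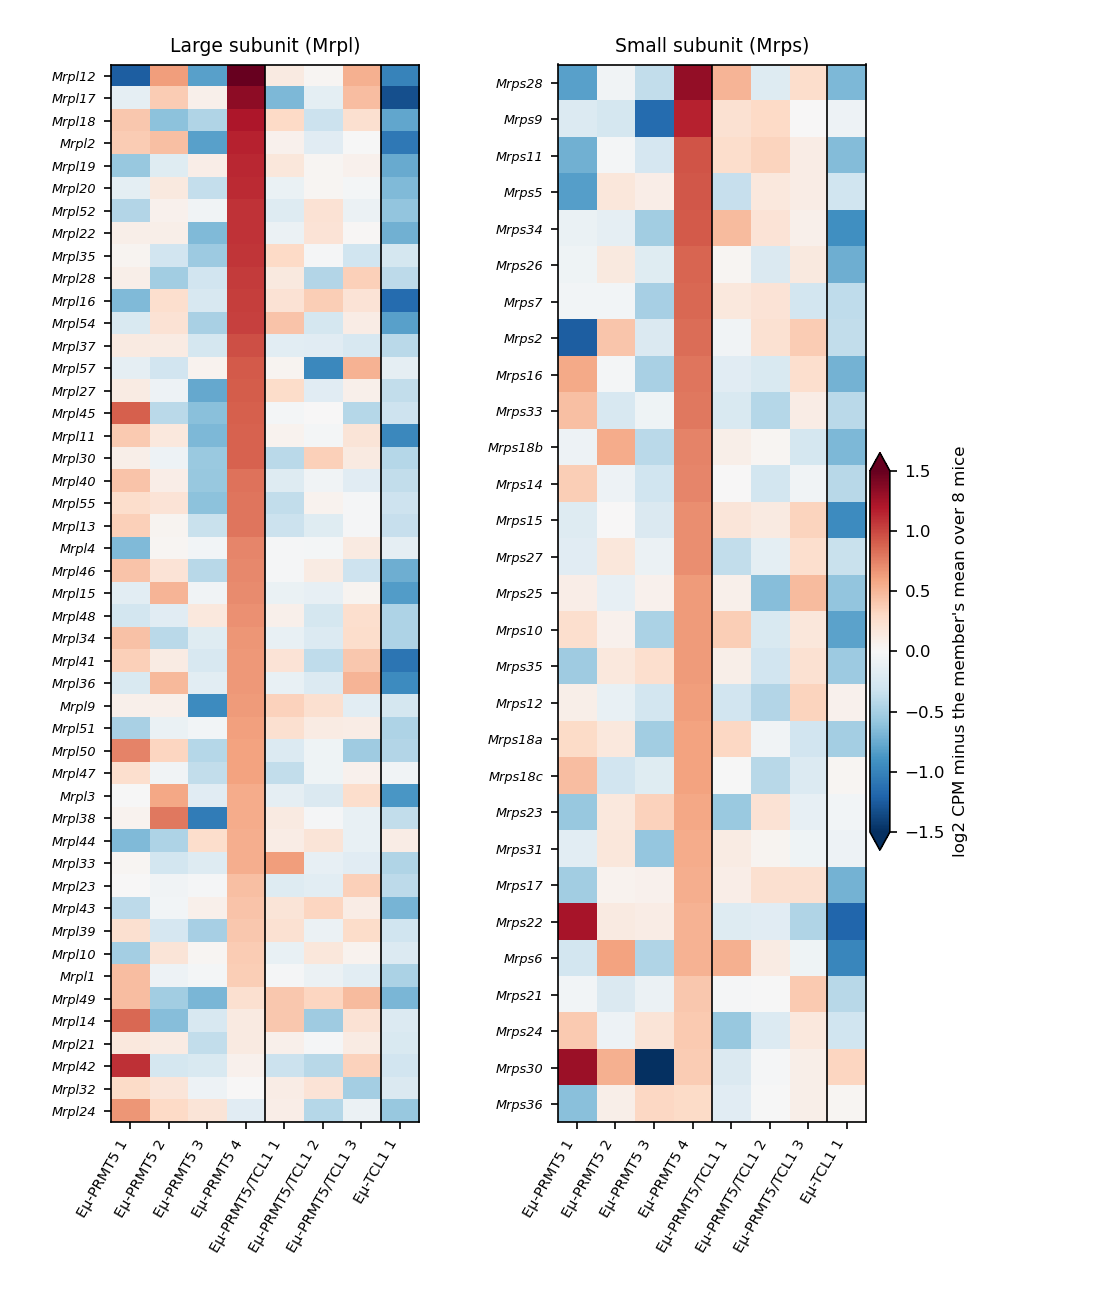
Log2 CPM (TMM) of each of the 76 tested members minus its mean over the 8 mice, large subunit at left and small subunit at right, ordered by the value in Eµ-PRMT5 mouse 4; vertical lines part the genotypes and the color scale ends at 1.5. The column of Eµ-PRMT5 mouse 4 is the highest for 60 members and that of the Eµ-TCL1 mouse the lowest for 37.

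Levels between members were compared per kilobase of the annotated principal transcript, as the mean CPM per kb over the 8 mice. The median was 55.4 CPM per kb for the large and 32.7 for the small subunit, so the order of the subunits held on this scale too. By symbol, Mrpl42, Mrpl28 and Mrpl33 were the highest of the large subunit (195, 158 and 128 CPM per kb). Mrps21, Mrps18c and Mrps18a were the highest of the small subunit by symbol (128, 98.6 and 90.8). The lowest were Mrpl47, Mrpl32 and Mrpl1 (6.55, 8.87 and 10.25) and Mrps25, Mrps35 and Mrps5 (4.69, 10.7 and 13.3), among which Mrps5 is the counterpart of a bacterial protein near the decoding site. Their annotated transcripts were long, from 3013 bases (Mrpl32) to 6073 (Mrps25), beside the member median of 1302. Before division by length, Mrps5 had a mean of 59.6 CPM, at the small subunit median of 59.6. The order thus rests on the annotated length as well as on the counts. Exons of Mrps25 overlap another gene over 69.8% of their bases (Nr2c2), and no source tells whether reads were counted by strand, so its level is uncertain. Mrpl53 (chr6:83109040-83109939, GRCm38) was at 0 in all 8 libraries, and a count of 0 allows up to 0.811 CPM in the shallowest and 0.346 CPM in the deepest, for counting error only. In GENCODE vM21, 88.0% of its exon bases are covered by a gene on the same strand, Gm42688. Of 44 protein-coding symbols with over 80% such cover 20 (45.5%) were at 0 in all libraries, against 16 of 12108 others (0.132%).

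In Eµ-PRMT5/TCL1 against Eµ-PRMT5 at ERC, no member passed edgeR's quasi-likelihood test with Benjamini-Hochberg adjustment over all 13173 tested genes. The count was 0 of 76 at an adjusted p under 0.05, where the background was 0.0% of tested genes, and no member reached an unadjusted p under 0.05 in either direction, in edgeR or in DESeq2. Of all tested genes 0.957% were higher and 1.21% lower at that unadjusted level. The median log2 fold change of the members was -0.19, beside -0.09 over all tested genes, with 59 negative and 17 positive, and 60 were smaller than their own standard error. The large subunit median was -0.20 (38 of 47 negative) and the small subunit median -0.16 (21 of 29 negative). Eµ-PRMT5 mouse 4 decided the sign: without it the median was 0.05, with 45 positive and 31 negative. Without Eµ-PRMT5 mouse 3 the median was -0.31. In that fit 4 of 76 members were lower at an unadjusted p under 0.05, where 771 of 13101 genes passed in either direction.

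Mrps22, a small subunit protein without a bacterial counterpart that is mutated in inherited mitochondrial disease, was the 1 member whose groups did not overlap. It stood at 46.5, 21.5, 21.2 and 28.3 CPM in Eµ-PRMT5 mice, 17.2, 17.4 and 14.4 in Eµ-PRMT5/TCL1 mice and 8.65 in the Eµ-TCL1 mouse. All Eµ-PRMT5/TCL1 mice were below all Eµ-PRMT5 mice for this 1 member (1.32% of members), where 1.59% of tested genes had that order, and for 0 members was the order the reverse (1.35% of tested genes). The log2 fold change of Mrps22 was -0.84 ± 0.43 (SE), with an unadjusted p of 0.0753 and an adjusted p of 1.0 by edgeR's quasi-likelihood test with Benjamini-Hochberg adjustment.

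The other members at the ends of this comparison overlapped between the groups. Mrpl50, at -0.63 ± 0.38 (SE) on the log2 scale, stood at 58.7, 44.0, 25.99 and 53.2 CPM in Eµ-PRMT5 and 30.3, 33.6 and 24.3 in Eµ-PRMT5/TCL1. Mrpl49 had the highest fold change, 0.45 ± 0.37 (SE), from 60.9, 30.9, 27.6 and 52.1 CPM in Eµ-PRMT5 and 58.7, 55.2 and 61.5 in Eµ-PRMT5/TCL1. Both encode large subunit proteins without a bacterial counterpart. By symbol, next lowest were Mrpl17 (-0.58) and Mrpl37 (-0.50) of the Mrpl members and Mrps30 (-0.47) and Mrps33 (-0.46) of the Mrps members. Next highest were Mrpl43 (0.17), Mrpl39 (0.13), Mrps11 (0.12), Mrps34 (0.11) and Mrps17 (0.11), all within their standard errors. Exons of Mrps34 overlap Mapk8ip3 over 77.8% of their bases.

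For Eµ-PRMT5 mice against the Eµ-TCL1 mouse, nearly every member was on the same side. The log2 fold change was positive for 75 of 76 members, with a median of 0.65 beside 0.04 over all tested genes. Past 2-fold were 19 of 76 members, all higher in Eµ-PRMT5, beside 3663 of 13173 tested genes in either direction. The medians of the large and small subunits were 0.65 and 0.69. The Eµ-TCL1 mouse was below all 4 Eµ-PRMT5 mice for 44 of 76 members, against 17.9% of tested genes, and above all 4 for 0, against 24.4%. Still 0 of 76 members passed the adjusted test (background 0.0%), and the smallest adjusted p by edgeR's quasi-likelihood test with Benjamini-Hochberg adjustment was 0.709. At an unadjusted p under 0.05 the count was 5 higher in Eµ-PRMT5 (1.96% of tested genes) and 0 lower (4.82%). DESeq2 gave 10 and 0, where 1126 of 13173 genes passed in either direction, with 0 members at an adjusted p. The count of members at the unadjusted level changed with the mouse left out, and so did the count over all tested genes. The members' median ran from 0.45 without Eµ-PRMT5 mouse 4 to 0.79 without mouse 3. With counts scaled by library size only the median was 0.36, with 65 positive, beside -0.21 over all tested genes.

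The 5 were Mrpl17, Mrps22, Mrpl2, Mrpl41 and Mrpl3. Mrpl17 (chr7:105803206-105811099), a counterpart of bacterial L17, stood at 95.8, 136, 111 and 266 CPM in Eµ-PRMT5, 65.9, 95.1 and 144 in Eµ-PRMT5/TCL1 and 42.2 in Eµ-TCL1. Mrpl2 (chr17:46646229-46650139), from the core of the large subunit beside the peptidyl transferase center, stood at 121, 128, 53.1 and 208 CPM, at 98.0, 83.2 and 93.1, and at 44.3. The Eµ-TCL1 mouse was the lowest of the 8 in both, and Eµ-PRMT5 mouse 4 the highest. Mrpl41 (chr2:24974117-24975098), a large subunit protein without a bacterial counterpart, stood at 51.8, 44.2, 34.4 and 63.5 CPM in Eµ-PRMT5, 46.6, 31.03 and 53.5 in Eµ-PRMT5/TCL1 and 18.9 in Eµ-TCL1. Mrpl3 (chr9:105053239-105079888), a counterpart of bacterial L3 that reaches toward the peptidyl transferase center, stood at 72.0, 107.5, 64.1 and 106 CPM, at 65.6, 62.2 and 86.4, and at 39.2. Here too the Eµ-TCL1 mouse lay below all the others. All positions are on GRCm38 and cover the whole gene.

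Their log2 fold changes in Eµ-PRMT5 against Eµ-TCL1 were 1.85 ± 0.71 (SE) for Mrpl17, 1.76 ± 0.72 for Mrps22, 1.53 ± 0.67 for Mrpl2, 1.36 ± 0.59 for Mrpl41 and 1.16 ± 0.53 for Mrpl3. The unadjusted p-values by edgeR's quasi-likelihood test were 0.0226, 0.0301, 0.0428, 0.0406 and 0.0495, and after Benjamini-Hochberg adjustment each was 0.709, so none is a call. Exons of these genes overlap no other gene, except 3.72% of the bases of Mrpl3.

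**Figure D3:**
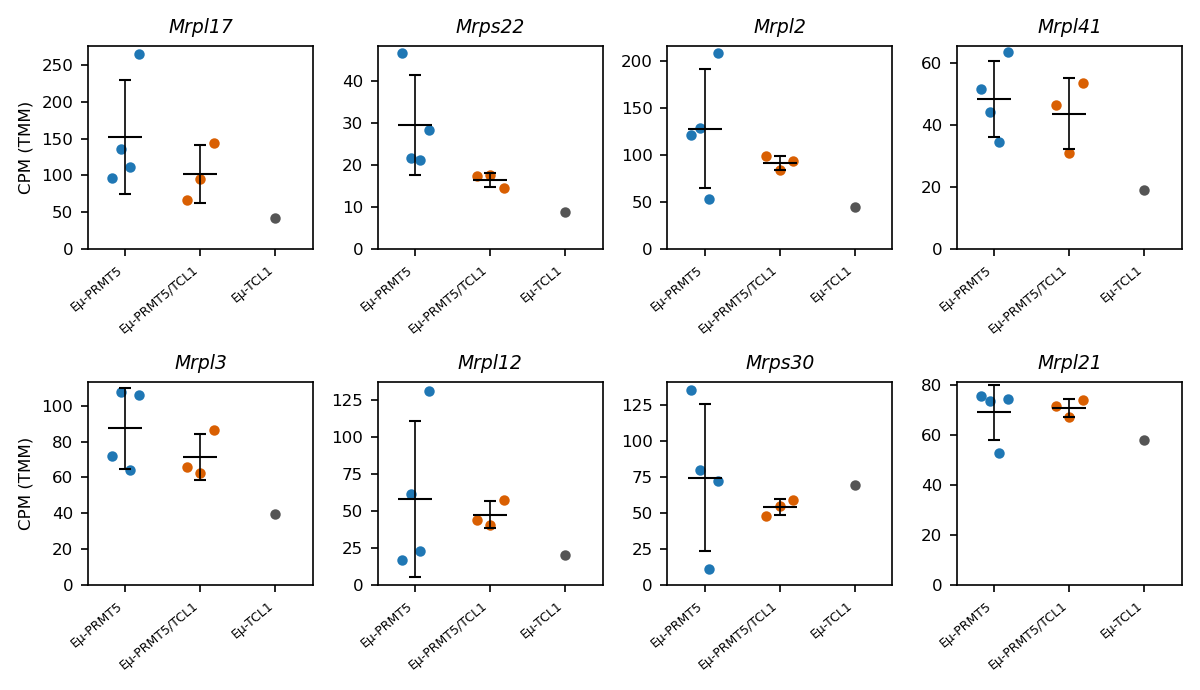
CPM (TMM) of 8 members by genotype, each point 1 mouse, with the mean and SD of the replicated groups in black; the axes start at 0. In Mrpl17, Mrps22, Mrpl2, Mrpl41 and Mrpl3 the Eµ-TCL1 mouse is the lowest of the 8, while Mrpl12 and Mrps30 have the largest SD on the log2 scale over the 8 mice and Mrpl21 the smallest.

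Eµ-PRMT5/TCL1 mice against the Eµ-TCL1 mouse also left most members lower in the Eµ-TCL1 mouse. This comparison shares the Eµ-TCL1 library with the one before, so they are not independent. The log2 fold change was positive for 69 of 76 members, with a median of 0.47 beside -0.07 over all tested genes. The medians were 0.45 in the large and 0.55 in the small subunit. The Eµ-TCL1 mouse was below all 3 Eµ-PRMT5/TCL1 mice for 55 members, against 27.6% of tested genes, and above all 3 for 2 members, against 39.0%. In edgeR 0 members passed the adjusted test (background 0.0%) and 0 reached an unadjusted p under 0.05 in either direction, where 1.75% of tested genes were higher and 4.33% lower. DESeq2 gave 3 higher at the unadjusted level, where 930 of 13173 genes passed in either direction, and 0 at the adjusted one. A fit of the 4 libraries of these groups alone, whose spread rests on the 3 Eµ-PRMT5/TCL1 mice, gave 20 higher at the unadjusted level, where 2359 of 13024 genes passed in either direction, and 0 at the adjusted one. Scaling by library size only gave a median of 0.25 with 58 positive, and counting NA as 0 gave 0.77.

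**Figure D4:**
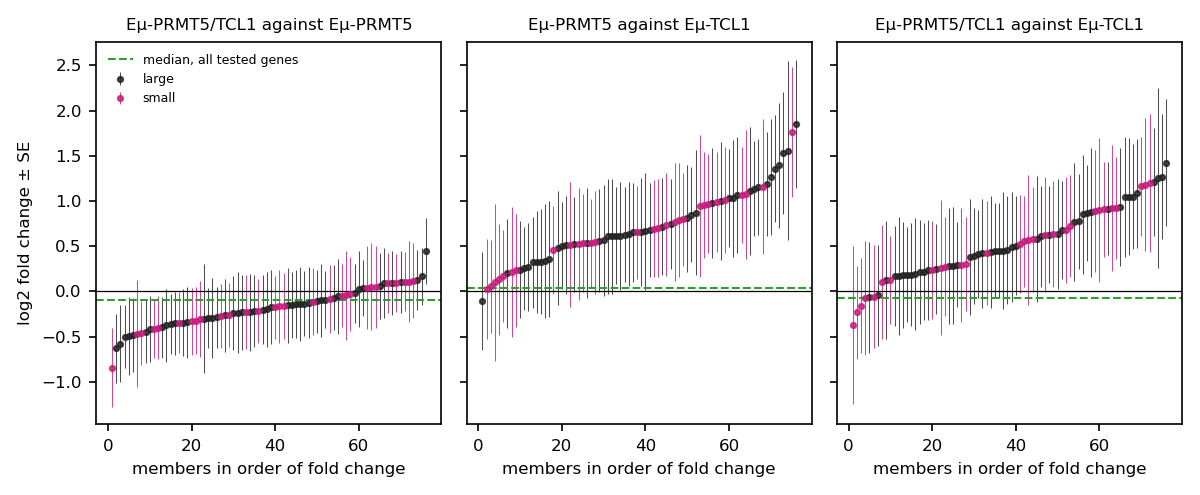
Log2 fold change ± SE of each of the 76 members in order, in the 3 comparisons, with large subunit members in black and small in magenta. The SE is derived from edgeR's F statistic, and the dashed line is the median of all tested genes. The members lie on both sides of 0 in the first panel (59 negative), and 75 and 69 of 76 lie above it in the others.

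The members of known role spanned the range of these values. Mrpl12 and Mrpl11 belong to the stalk that recruits translation factors, and Mrpl12 also binds the mitochondrial RNA polymerase. Mrpl12 was among the most variable members (SD 0.98), at 16.8, 61.1, 22.6 and 131 CPM in Eµ-PRMT5, 43.6, 40.5 and 57.5 in Eµ-PRMT5/TCL1 and 19.7 in Eµ-TCL1. Its highest and lowest mice, 7.79-fold apart, were both Eµ-PRMT5, and 13.1% of its exon bases overlap Gm16755. Mrpl11 stood at 50.7, 43.1, 24.2 and 71.6 CPM, at 40.2, 37.9 and 44.3, and at 19.7. Mrpl44, whose protein has a ribonuclease III fold, was the 1 member with a negative log2 fold change in Eµ-PRMT5 against Eµ-TCL1, -0.11 ± 0.54 (SE), from 39.2, 45.1, 74.8 and 91.0 CPM in Eµ-PRMT5, 67.4, 70.9 and 57.6 in Eµ-PRMT5/TCL1 and 67.3 in Eµ-TCL1.

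Mrps30 had the largest SD of all members, 1.05 on the log2 scale. It stood at 135, 80.0, 10.7 and 72.0 CPM in Eµ-PRMT5, 47.9, 54.8 and 58.7 in Eµ-PRMT5/TCL1 and 69.5 in Eµ-TCL1. The extremes were again both Eµ-PRMT5 mice, numbers 1 and 3, 12.6-fold apart, and it is 1 of the 2 members for which the Eµ-TCL1 mouse lay above all 3 Eµ-PRMT5/TCL1 mice. Mrps18c was the other, at 60.8, 45.8 and 53.0 CPM against 62.5 in Eµ-TCL1. At the opposite end, Mrpl21 (SD 0.19), a counterpart of bacterial L21, ranged only from 52.7 to 75.7 CPM over the 8 mice. Mrpl32 (SD 0.26), which a mitochondrial protease must process before it joins the ribosome, ranged from 18.6 to 32.3 CPM, and Mrpl10 (SD 0.27), a stalk protein, from 47.3 to 87.2.

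In the small subunit, Mrps12, the counterpart of the bacterial protein at the decoding center, stood at 59.8 to 91.7 CPM in Eµ-PRMT5/TCL1, 60.4 to 113 in Eµ-PRMT5 and 76.5 in Eµ-TCL1, so the 3 genotypes overlapped. Mrps16, one of the first members found mutated in a mitochondrial disease, stood at 97.4, 64.8, 46.96 and 115 CPM in Eµ-PRMT5, 58.7, 56.2 and 78.8 in Eµ-PRMT5/TCL1 and 40.3 in Eµ-TCL1. Mrps5 ranged from 31.9 to 107 CPM over the 8 mice, and Mrps2 from 17.1 to 72.0, with the extremes of both in Eµ-PRMT5 mice 1 and 4. The paralogs Mrps18a (large subunit in structures), Mrps18b and Mrps18c had log2 fold changes of -0.18, -0.32 and -0.40 in Eµ-PRMT5/TCL1 against Eµ-PRMT5. None was beyond the spread between mice by the test. Their log2 fold changes in Eµ-PRMT5 against Eµ-TCL1 were 0.70, 0.95 and 0.17. Mrps36, which is not part of the ribosome in structures, was at 0.03 in that comparison.

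Members with and without a bacterial counterpart were compared by their medians, without a test. In Eµ-PRMT5/TCL1 against Eµ-PRMT5 the median log2 fold change was -0.17 for 46 members with a counterpart and -0.24 for 30 without, and in Eµ-PRMT5 against Eµ-TCL1 it was 0.67 and 0.64. The medians lay farther apart in Eµ-PRMT5/TCL1 against Eµ-TCL1, at 0.54 with a counterpart and 0.33 without. The 45 members whose exons overlap no other gene had medians of -0.22 and 0.66. By transcript length, the shorter 38 were at 0.70 and the longer 38 at 0.63 in Eµ-PRMT5 against Eµ-TCL1, and at 0.56 and 0.42 in Eµ-PRMT5/TCL1 against Eµ-TCL1.

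Many members start head to head with another gene, a feature of position that the choice of genes did not use. Within 1000 bases, 33 of 76 (43.4%) faced a gene on the opposite strand, against 16.4% of 11910 protein-coding genes tested. For Mrps11 and Mrpl46, whose windows are shown above, the correlation over the 8 mice was 0.52. Mrps11 stood at 22.3 to 70.7 CPM in Eµ-PRMT5, 44.1, 46.6 and 39.95 in Eµ-PRMT5/TCL1 and 23.5 in Eµ-TCL1. Mrpl46 stood at 111, 95.2, 61.8 and 135.5 CPM, at 81.3, 89.7 and 66.2, and at 49.5. Both were highest in Eµ-PRMT5 mouse 4, but their log2 fold changes in Eµ-PRMT5/TCL1 against Eµ-PRMT5 differed in sign, 0.12 and -0.35. Their exons overlap on opposite strands over 7.97% and 12.2% of their bases, so some reads may belong to either. Other pairs ran from 0.86 (Mrpl18 with Tcp1, a cytosolic chaperonin subunit) and 0.83 (Mrpl36 with Ndufs6, of respiratory complex I) to -0.66 (Mrps7 with Gga3).

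Proteins of the mitoribosome whose symbols follow another scheme were taken from a list. The 4 of the small subunit had a median log2 fold change of -0.14 in Eµ-PRMT5/TCL1 against Eµ-PRMT5, and 0 of 4 reached an unadjusted p under 0.05. Dap3, a GTP-binding protein, stood at 68.2, 84.5, 82.7 and 115 CPM in Eµ-PRMT5, 89.8, 110.5 and 107 in Eµ-PRMT5/TCL1 and 79.5 in Eµ-TCL1. Ptcd3, an RNA-binding protein, stood at 115, 117, 86.8 and 101 CPM, at 67.0, 85.5 and 77.3, and at 61.6. All Eµ-PRMT5/TCL1 mice lay below all Eµ-PRMT5 mice in Ptcd3, an order that 1.59% of all tested genes had. The test did not call it (log2 fold change -0.45 ± 0.30 SE, unadjusted p of 0.159 by edgeR). Chchd1 and Aurkaip1 were at -0.11 and -0.17, and Gadd45gip1 of the large subunit at -0.40 ± 0.42 (SE).

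The enzymes and factors that work with the mitoribosome were taken from lists too, and in Eµ-PRMT5 against Eµ-TCL1 their medians lay nearer to 0 than the 0.65 of the members. The median log2 fold change was 0.18 for 16 tested mitochondrial translation factors (9 positive), 0.32 for 30 assembly factors (19 positive) and 0.19 for 22 aminoacyl-tRNA synthetases (14 positive). Markers of mitochondrial mass and biogenesis had a median of 0.77, with 20 of 22 positive. None of these genes passed the adjusted edgeR test in any comparison. The difference between these lists and the members was not tested, and genes encoded by mitochondrial DNA were not analysed here.

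A few genes of these lists reached an unadjusted p under 0.05 in edgeR's quasi-likelihood test. C1qbp, a matrix protein needed for mitochondrial translation, stood at 85.7, 262, 158 and 511 CPM in Eµ-PRMT5, 157, 148 and 239 in Eµ-PRMT5/TCL1 and 53.0 in Eµ-TCL1, with a log2 fold change of 2.26 ± 0.89 (SE) in Eµ-PRMT5 against Eµ-TCL1 (unadjusted p = 0.026, adjusted p = 0.709). Hspe1, the mitochondrial co-chaperonin, stood at 57.6, 118, 44.0 and 53.5 CPM, at 92.6, 56.5 and 61.0, and at 22.4, which gave unadjusted p-values of 0.0331 and 0.0327 against the Eµ-TCL1 mouse. Grsf1, an RNA-binding protein of mitochondrial RNA granules, stood at 33.7, 24.7, 18.2 and 44.6 CPM in Eµ-PRMT5, 12.1, 17.3 and 9.99 in Eµ-PRMT5/TCL1 and 13.8 in Eµ-TCL1. All Eµ-PRMT5/TCL1 mice lay below all Eµ-PRMT5 mice in Grsf1. Mtif2 and Malsu1 of these lists had the same order, as did 1.59% of all tested genes. The log2 fold change of Grsf1 in Eµ-PRMT5/TCL1 against Eµ-PRMT5 was -1.21 ± 0.46 (SE, unadjusted p = 0.0212, adjusted p = 1.0 by edgeR).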

How the data were processed

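Bulk RNA-seq of splenic B cells was analysed for 8 mice, grouped by the genotype in their labels. The values are raw counts by gene symbol as the authors deposited them, 1 column for each mouse and not normalized. Their methods describe low-input preamplification from isolated B cells, paired-end sequencing and the CLEAR workflow, whereas the labels name a stranded mRNA kit, and the submitters' processing notes list GRCm38, Subread, featureCounts and DESeq2 1.20.0. A methods section with the kit and counter of the labels, written for other results, names STAR and an Ensembl annotation, and whether it covers this matrix is not stated. The use of strand and the meaning of NA are not given in the sources used here, so symbols with NA in any library were left out of the main results, and 26 rows with a date in place of a symbol were kept as written.

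Counts were tested in edgeR 4.0.16 (R 4.3.3) by the quasi-likelihood test in 1 model over the 3 genotypes, after filtering low counts by group (filterByExpr) and TMM scaling. Benjamini-Hochberg adjustment ran over all 13173 tested genes, and a call needed an adjusted p under 0.05. The SE given with edgeR values is the absolute log2 fold change divided by the square root of the test's F statistic. A fold change smaller than its SE thus restates an F below 1. DESeq2 1.42.0 was an alternative. P-values measure the spread between mice, and the biological coefficient of variation was 0.483. Log2 CPM used a prior count of 2. The code was tested on simulated data. Members other than Mrpl53 had 28 to 2840 counts in a library. Gene positions and lengths are from GENCODE vM21 (GRCm38).

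The members and the gene lists were chosen with earlier results of these data known. Genes named are members at an unadjusted p under 0.05 in a comparison, members of known role and those with 1 mouse far from the rest. So are the 3 highest and 3 lowest of each subunit by fold change in Eµ-PRMT5/TCL1 against Eµ-PRMT5 and by CPM per kb. The 3 most and 3 least variable members and 5 mitoribosomal proteins of other symbols are named too. Of list genes at an unadjusted p under 0.05, those of the mitochondrial lists are named. Genes of the cell type and cytosolic ribosomal lists also reached that level and are not all given. Members shown for their promoter or their neighbor, and Mrpl53, were chosen after their values were seen. Other scaling, filters, NA as 0, thinning to equal depth, the replicate block and leaving out each mouse were tried.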

Additional observations from a re-analysis of the deposited data

Results flagged for a closer look

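Among 79 quantities examined over the 4 Eµ-PRMT5 mice (each member and 3 summaries), 3 had 1 mouse far from the others by Dixon's criterion for 4 samples, and chance gives about 1 in 20, or 4. Mrpl21 stood at 52.7 CPM in mouse 3, where the other 3 lay at 73.6 to 75.7 CPM, with a gap of 0.923 of the range on the log2 scale. Mrpl23, a large subunit protein, stood at 119 CPM in mouse 4 and at 83.6 to 87.3 CPM in the others (gap 0.878). The members' share of the counts on symbols with a value in all libraries was 0.699% in mouse 4. It was between 0.459% and 0.488% in the others (gap 0.878). The set mean and the difference of the subunits were not marked in this way.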

How the results depend on the processing

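No member passed the adjusted test under any alternative run, in edgeR or DESeq2. At an unadjusted p under 0.05, 5 members were counted in Eµ-PRMT5 against Eµ-TCL1. The median log2 fold change of the members, over fits that left out 1 mouse, ran from -0.31 to 0.05 in Eµ-PRMT5/TCL1 against Eµ-PRMT5, from 0.45 to 0.79 in Eµ-PRMT5 against Eµ-TCL1 and from 0.43 to 0.60 in Eµ-PRMT5/TCL1 against Eµ-TCL1. Relative to the median of all tested genes, which scaling moved between -0.21 and 0.14 in Eµ-PRMT5 against Eµ-TCL1, the members stayed 0.57 to 0.62 higher there under other scaling. This difference was 0.91 with NA counted as 0 (median 0.95), 0.42 without Eµ-PRMT5 mouse 4 and 0.48 under the replicate block. The difference of the subunits between Eµ-PRMT5/TCL1 and Eµ-PRMT5 was -0.02 on means and 0.10 with medians over members, and the cause was not tested.

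Of 364 values of single members under alternatives, 10 turned sign. In Eµ-PRMT5/TCL1 against Eµ-PRMT5, leaving out 1 mouse took Mrpl39 from -0.0091 to 0.284, Mrps11 from -0.0731 to 0.546, Mrps17 from -0.0351 to 0.303 and Mrps34 from -0.0584 to 0.498, where the lowest value came without Eµ-PRMT5 mouse 1 (Mrps11, Mrps17) or mouse 3 (Mrpl39, Mrps34). Mrpl44 in Eµ-PRMT5 against Eµ-TCL1 ran from -0.346 to 0.175 without 1 mouse and was 0.17 with NA counted as 0. Deviations of same-numbered mice correlated at -0.02, 0.15 and 0.16, so not every pair passed 0.1 and the numbers were not taken to pair the mice, although 5 of 6 mice correlated best with their own number, a hint from the data and not the design. With the replicate number as a block, which leaves out Eµ-PRMT5 mouse 4, the members' median in Eµ-PRMT5/TCL1 against Eµ-PRMT5 was 0.06, Mrps30 was at 0.0012 there and at 0.40 against Eµ-TCL1, and no member was called. The median member had 155.5 counts in the shallowest library, and the Eµ-TCL1 group holds 1 mouse.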

Other observations

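Cytosolic ribosomal proteins, of which 89 were tested, also stood lower in the Eµ-TCL1 mouse, with a median log2 fold change of 1.13 in Eµ-PRMT5 and 1.18 in Eµ-PRMT5/TCL1 against it (84 and 83 of 89 positive). Their mean log2 CPM was 6.83, 7.18, 7.403 and 8.12 in Eµ-PRMT5, 7.41, 7.53 and 7.57 in Eµ-PRMT5/TCL1 and 6.47 in Eµ-TCL1. The mouse with the highest and the one with the lowest value are those of the mitochondrial set. Members with ETS, YY1 or NRF1 letters in their promoter window (35) and those without (32) had medians of 0.57 and 0.66 in Eµ-PRMT5 against Eµ-TCL1 and of -0.22 and -0.16 in Eµ-PRMT5/TCL1 against Eµ-PRMT5. The 31 members that start head to head with a tested gene were at 0.61 and -0.14 in the same comparisons, and the others at 0.70 and -0.20. The plasma cell markers on a list of 6 did not move as one. Their sums were 689 to 5760 CPM in Eµ-PRMT5, 518 to 2819 in Eµ-PRMT5/TCL1 and 2068 in Eµ-TCL1. Jchain and Xbp1 made 3057 and 2249 of the 5760 CPM in Eµ-PRMT5 mouse 1, and Xbp1 made 1480 of the 2068 in Eµ-TCL1. Prdm1 (209.8 CPM) and Tnfrsf17 (63.0) were highest of all mice in Eµ-TCL1, where Jchain, at 156, lay inside the range of both other groups. T-cell markers (6 of 9 tested) summed to 267 to 714, 257 to 727 and 227 CPM. Macrophage markers (5 of 9) summed to 1093 to 3293, 988 to 6960 and 1055, and erythroid markers (5 of 8) to 20.4 to 348, 57.9 to 323 and 21.4. Single genes held most of the highest T-cell and macrophage sums. Lck made 667 of the 727 CPM in Eµ-PRMT5/TCL1 mouse 2, and Lyz2 made 6224 of the 6960 CPM in Eµ-PRMT5/TCL1 mouse 1. These sums thus do not measure the share of T cells, macrophages or plasma cells.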
